A study of Homo sapiens with 12 samples.

Results

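Aminoacyl-tRNA synthetases are the enzymes that join each amino acid to its transfer RNA, the step that sets the reading of the genetic code before any ribosome is involved. The 36 synthetase genes described here were taken by symbol from a fixed list of enzyme names, and all 36 were present among the 17518 genes of the deposited count table. They comprised 20 genes for cytosolic enzymes and 16 for mitochondrial enzymes. GARS1 and KARS1, counted with the cytosolic genes, each also supply the mitochondrial enzyme for their amino acid. The list was written with the opposite changes of AARS1 in the studied lines already known, so that gene is described without a test.

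RNA sequencing had been done on MUTZ-1 and SKM-1, human lines that the labels describe as marrow-derived cells of myelodysplastic syndrome, a clonal disorder of blood formation. Each line contributed 3 libraries of cells with a control short hairpin RNA (genotype given as WT) and 3 libraries with a hairpin against NUDT21, all tagged sh1 in both lines. NUDT21 encodes a subunit of cleavage factor Im, which takes part in choosing where a transcript is cut and polyadenylated, and the question addressed was what its loss does to gene expression. No text used here says whether the libraries of a group came from separate cultures. The p-values therefore judge differences between groups only against the spread among these libraries, which may be technical. With 1 hairpin tag per line, effects of that hairpin or of the selected cells cannot be told apart from effects of NUDT21 loss.

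Levels are given as CPM, counts divided by library size on the usual fixed scale, with library sizes adjusted by trimmed means of M values (TMM). NUDT21 was at 301, 297 and 301 CPM in the MUTZ-1 controls and at 135, 136 and 142 CPM after knockdown, which left 46.1%. In SKM-1 it was at 322, 336 and 344 CPM in the controls and at 131, 132 and 129 CPM after knockdown, which left 39.2%. Library totals ran from 15843012 to 18426619 counts. The labelled marrow origin was checked against lineage markers. MUTZ-1 had 5 of 5 B-lineage markers and 0 of 5 myeloid markers at 1 CPM or more, with MPO listed at 0. SKM-1 controls had 5 of 5 erythroid, 4 of 5 epithelial and 1 of 5 myeloid markers at that level. Of 4 general blood-cell markers (PTPRC, SPI1, CD34 and KIT), 3 reached it in SKM-1 controls and 2 in MUTZ-1 controls. CD34 was listed at 0 in SKM-1. PTPRC was at 48.1, 50.5 and 47.5 CPM in SKM-1 controls and at 351, 351 and 358 CPM in MUTZ-1 controls. The summed B-lineage markers of MUTZ-1 went from a range of 1936 to 1945 CPM in controls to 1582 to 1626 CPM after knockdown. The summed erythroid markers of SKM-1 went from 588 to 615 CPM up to 2363 to 2553 CPM, and the epithelial ones from 374 to 382 CPM up to 764 to 789 CPM. These shifts moved together with every synthetase change given for the same line, and their part in those changes was not tested. In such bulk samples, a change in the RNA of each cell cannot be told apart from a change in the mix of cells.

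Cytosolic enzymes charge the tRNAs that nuclear-encoded mRNAs are read with, and several of them sit in a large assembly, the multisynthetase complex, held together by scaffold proteins without catalytic activity. Mitochondria import their own set, encoded by separate nuclear genes, to charge the tRNAs of the mitochondrial genome. Many cytosolic synthetase genes are known targets of ATF4, the transcription factor of the amino acid and integrated stress responses. ATF4 binds with a C/EBP partner to a short element, the C/EBP-ATF response element. WARS1, the tryptophanyl enzyme, is in addition a well-known interferon-gamma target.

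Promoter letters are shown for the genes whose changes are read against the ATF4 and interferon programs further on. RefSeq windows of build GRCh38.p14 matched 30 of the 36 genes by symbol, in 39 windows, and the 250 bases before each transcription start were searched on both strands. The C/EBP-ATF element was searched as TGATGNAA. It lay in the windows of AARS1, GARS1, IARS1 and YARS2, which made 10.3% of the synthetase windows against 3.14% of all 35116 promoter windows searched the same way. The capitals mark the match, and each stretch is read 5′ to 3′ in the direction of the gene. In the first 3 the capitals are the reverse complement of the searched letters.
AARS1: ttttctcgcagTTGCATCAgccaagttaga
GARS1: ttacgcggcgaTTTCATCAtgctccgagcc
IARS1: cccgcattttcagcgcgTTGCATCAcctcc
YARS2: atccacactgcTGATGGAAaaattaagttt
The AARS1 stretch is chr16:70289675-70289704 on the minus strand, with the match 187 to 180 bases before the start. The GARS1 stretch is chr7:30594834-30594863 on the plus strand, 33 to 26 bases before the start. The IARS1 stretch is chr9:92293698-92293727 on the minus strand, 13 to 6 bases before the start. The YARS2 stretch is chr12:32756076-32756105 on the minus strand, 197 to 190 bases before the start.

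For WARS1 the matches to the interferon elements are shown. The gamma-activated site was searched as TTCNNNGAA, and the interferon-stimulated response element as a pair of TTTC blocks with a short free gap.
WARS1 gamma-activated site: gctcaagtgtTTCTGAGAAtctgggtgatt
WARS1 interferon-stimulated response element: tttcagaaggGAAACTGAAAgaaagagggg
The stretches are chr14:100375470-100375499 and chr14:100375383-100375412, both on the minus strand, and the capitals in the latter are the reverse complement of the searched letters. TTCNNNGAA was found in the windows of PARS2, TARS1, WARS1 and WARS2 (15.4% of synthetase windows, 6.57% of all), and the interferon-stimulated response element in those of EARS2 and WARS1 (7.69% and 3.02%). Windows of a gene can overlap, and the WARS2 site of the former and the EARS2 site of the latter were each counted more than once. By gene, TTCNNNGAA was found for 4 of 30 synthetases against 2208 of all 27305 genes. The interferon-stimulated response element was found for 2 of 30 against 1014 of 27305. The E-box CACGTG, the element that MYC and MAX bind, was found in the windows of EARS2, IARS1 and MARS2, 7.69% of synthetase windows against 6.34% of all. A match describes letters in a window and is not evidence of binding.

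Levels between genes were compared in FPKM, fragment counts divided by transcript length and library size, which carry no TMM scaling. Cytosolic enzymes were the more abundant class in all 4 groups. Their median was 87.1 FPKM in control and 84.5 FPKM in knockdown MUTZ-1, and 85.3 FPKM in control and 124 FPKM in knockdown SKM-1. Mitochondrial enzymes had medians of 13.0, 12.3, 14.8 and 14.8 FPKM in the same order. GARS1, the glycyl enzyme of both compartments, was highest in control MUTZ-1 at 254 ± 1.89 FPKM (SD, n = 3). AARS1, the alanyl enzyme, and SARS1, the seryl enzyme, led in control SKM-1 at 213 ± 2.3 and 205 ± 5.1 FPKM, ahead of KARS1 at 148 FPKM. After knockdown in SKM-1 the valyl enzyme VARS1 and the lysyl enzyme KARS1 were highest, at 174 ± 3.0 and 174 ± 5.7 FPKM, and did not differ beyond their spread. TARS3, a threonyl-tRNA synthetase-like cytosolic enzyme, was the lowest cytosolic gene in every group, between 2.06 and 4.24 FPKM. FARS2, the mitochondrial phenylalanyl enzyme, was the lowest mitochondrial gene in both MUTZ-1 groups, at 1.91 and 1.69 FPKM.

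**Figure D1:**
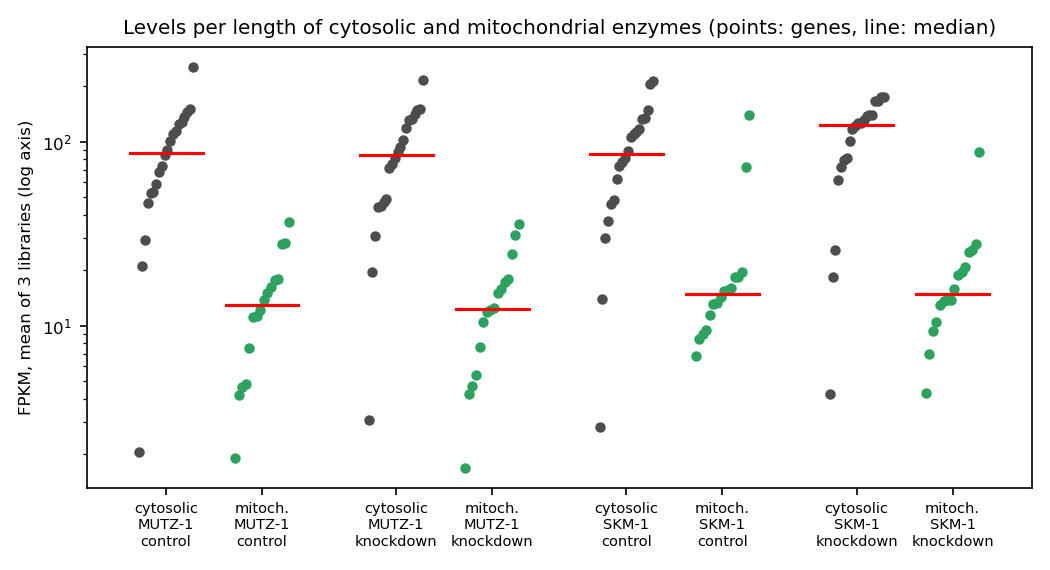
Mean FPKM over 3 libraries (log axis) of each synthetase gene, by enzyme class and group, with red lines at the class medians. The cytosolic median is 85.3 FPKM in control and 124 FPKM in knockdown SKM-1, while TARS2 stands out at 139 FPKM among the mitochondrial genes of control SKM-1.

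Changes are given as log2 fold changes of knockdown against control with their standard error (SE), from edgeR's quasi-likelihood test. A gene is said to have risen or fallen at an adjusted p under 0.05 (Benjamini-Hochberg over the 13625 genes tested), and all 36 synthetase genes were tested. In MUTZ-1, 5 of the 36 genes rose and 17 fell, where 24.4% of all genes tested rose and 24.6% fell. In SKM-1, 26 rose and 8 fell, where 42.1% of all genes rose and 42.3% fell. These counts and those of the lists below that hold AARS1 include it, although its changes were known when it was listed: without it 4 of 35 genes rose in MUTZ-1 and 7 of 35 fell in SKM-1. The median log2 fold change of the 36 was -0.06 in MUTZ-1, with a range from -0.32 to 0.52, and 0.36 in SKM-1, with a range from -2.25 to 1.24. The median over all genes tested was 0.00 in both lines. Opposite calls were frequent: 13 genes were lower in knockdown MUTZ-1 and higher in knockdown SKM-1, a pattern that 15.0% of all genes showed. They were EPRS1, FARSA, FARSB, GARS1, HARS1, IARS2, KARS1, MARS1, MARS2, NARS1, RARS1, TARS1 and VARS1. Not all of these calls held under other settings. HARS1 and IARS2 lost the MUTZ-1 call with library totals in place of TMM. With FPKM in place of counts, EPRS1 and IARS2 lost it, and MARS1 lost the SKM-1 call. The share of 15.0% is from the main fit alone. SARS1 and TARS2 rose in MUTZ-1 and fell in SKM-1, the pattern of 13.0% of all genes. AARS1 had the same pattern by the choice of the list and is not counted with them. IARS1 and TARS3 rose in both lines (7.72% of all genes), and CARS2, EARS2 and FARS2 fell in both (6.58%).

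The size of the MUTZ-1 changes was small, and the balance of calls there moved with the scaling. With library totals in place of TMM, 6 synthetase genes rose and 12 fell in MUTZ-1, and the share of higher among all called genes went from 49.8% to 60.7%. On the log2(FPKM + 1) scale 8 rose and 13 fell, with 61.1% of all calls higher. Without replicate 1 of the MUTZ-1 control, or without replicate 2 of the MUTZ-1 knockdown, 11 fell.

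**Figure D2:**
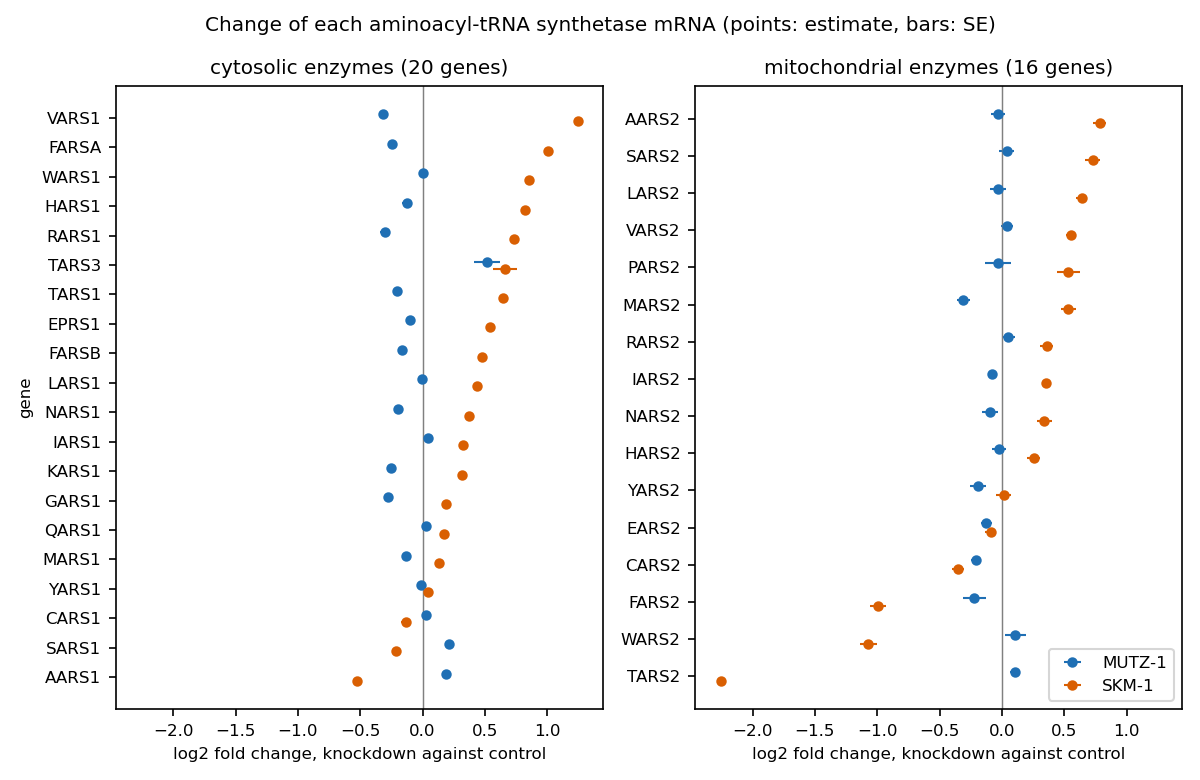
Log2 fold change (knockdown against control) of each synthetase gene in MUTZ-1 (blue) and SKM-1 (orange), with bars for the SE, for the 20 cytosolic and 16 mitochondrial genes ordered by the SKM-1 value. The orange points spread from -2.25 (TARS2) to 1.24 (VARS1), while the blue points stay between -0.32 and 0.52.

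Among the cytosolic genes, AARS1 and SARS1 were higher after knockdown in MUTZ-1 and lower in SKM-1. AARS1 was at 459, 470 and 453 CPM in control MUTZ-1 and at 525, 526 and 521 CPM after knockdown. In SKM-1 it was at 700, 686 and 693 CPM in controls and at 473, 487 and 488 CPM after knockdown. The groups did not overlap in either line, and the log2 fold changes were 0.19 ± 0.02 (SE) and -0.52 ± 0.02, which are a description since the gene was listed for them. SARS1 was at 228, 234 and 224 CPM against 267, 263 and 263 CPM in MUTZ-1, and at 390, 380 and 400 CPM against 336, 336 and 336 CPM in SKM-1. It rose by 0.21 ± 0.03 (adjusted p = 5.03e-13) in MUTZ-1 and fell by 0.21 ± 0.02 (adjusted p = 5.61e-16) in SKM-1. CARS1, the cysteinyl enzyme, was the only other cytosolic gene that fell in SKM-1, with a log2 fold change of -0.13 ± 0.04, and it was not called in MUTZ-1 (0.03).

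VARS1 and FARSA carried the largest rises in SKM-1, both at least 2-fold, a size that 12.6% of all genes reached. VARS1 was at 285, 291 and 295 CPM in control SKM-1 and at 674, 698 and 690 CPM after knockdown. Its libraries in MUTZ-1 read 240, 243 and 236 CPM in controls and 191, 198 and 190 CPM after knockdown. VARS1 thus rose 2.37-fold in SKM-1 (1.24 ± 0.02, adjusted p = 2.94e-122) and fell by 0.32 ± 0.03 in MUTZ-1 (adjusted p = 5.35e-24), with no overlap of groups in either line.

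FARSA encodes the catalytic alpha subunit of the cytosolic phenylalanyl enzyme, which works as a tetramer with the beta subunit FARSB. FARSA was at 125, 129 and 124 CPM in control SKM-1 and at 258, 257 and 245 CPM after knockdown, 2.01-fold higher (adjusted p = 7.04e-85). In MUTZ-1 it was at 186, 193 and 189 CPM against 157, 166 and 157 CPM, and fell by 0.24 ± 0.03. FARSB moved the same ways by less, with log2 fold changes of 0.47 ± 0.04 in SKM-1 and -0.17 ± 0.03 in MUTZ-1. The subunits of 1 enzyme therefore rose unequally in SKM-1, from means of 126 to 254 CPM for FARSA and of 122 to 169 CPM for FARSB.

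RARS1 and HARS1, the arginyl and histidyl enzymes, showed the same crossing. RARS1 was at 117, 115 and 120 CPM in control MUTZ-1 and at 89.8, 98.4 and 97.0 CPM after knockdown, and at 91.2, 93.6 and 93.3 CPM against 156, 152 and 155 CPM in SKM-1. It fell by 0.31 ± 0.04 in MUTZ-1 (adjusted p = 9.01e-14) and rose by 0.74 ± 0.04 in SKM-1 (adjusted p = 2.01e-52). HARS1 was at 69.0, 68.8 and 67.9 CPM in control SKM-1 and at 120, 122 and 123 CPM after knockdown, 1.77-fold higher. In MUTZ-1 HARS1 read 96.2, 92.1 and 94.6 CPM against 88.7, 82.7 and 87.7 CPM. The MUTZ-1 difference (-0.13 ± 0.04, adjusted p = 0.0034) was lost with library totals in place of TMM (adjusted p = 0.0794), without replicate 1 of the MUTZ-1 control (0.0986) and without replicate 2 of the MUTZ-1 knockdown (0.225).

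GARS1 and KARS1, which serve both compartments, also crossed. GARS1 was at 719, 711 and 709 CPM in control MUTZ-1 and at 590, 586 and 585 CPM after knockdown, a fall of 0.28 ± 0.02 (adjusted p = 5.62e-28). In SKM-1 it stood at a lower level throughout, 291, 302 and 302 CPM in controls and 337, 348 and 333 CPM after knockdown, a rise of 0.19 ± 0.02 (adjusted p = 2.32e-13). KARS1 was at 334, 329 and 311 CPM against 269, 273 and 276 CPM in MUTZ-1, and at 317, 323 and 323 CPM against 384, 410 and 403 CPM in SKM-1. Its log2 fold changes were -0.25 ± 0.03 and 0.31 ± 0.02.

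TARS3 rose in both lines from a low level. It was at 10.5, 9.74 and 9.84 CPM against 12.7, 15.2 and 15.4 CPM in MUTZ-1, and at 11.6, 13.0 and 13.0 CPM against 20.2, 17.6 and 21.8 CPM in SKM-1. The rise of 0.52 ± 0.10 in MUTZ-1 (adjusted p = 5.17e-06) was the largest of the 36 genes in that line, and that of 0.66 ± 0.10 in SKM-1 was not called different from it (-0.14 ± 0.14, adjusted p = 0.367). The main cytosolic threonyl enzyme, TARS1, crossed between the lines, with log2 fold changes of -0.21 in MUTZ-1 and 0.65 in SKM-1.

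**Figure D3:**
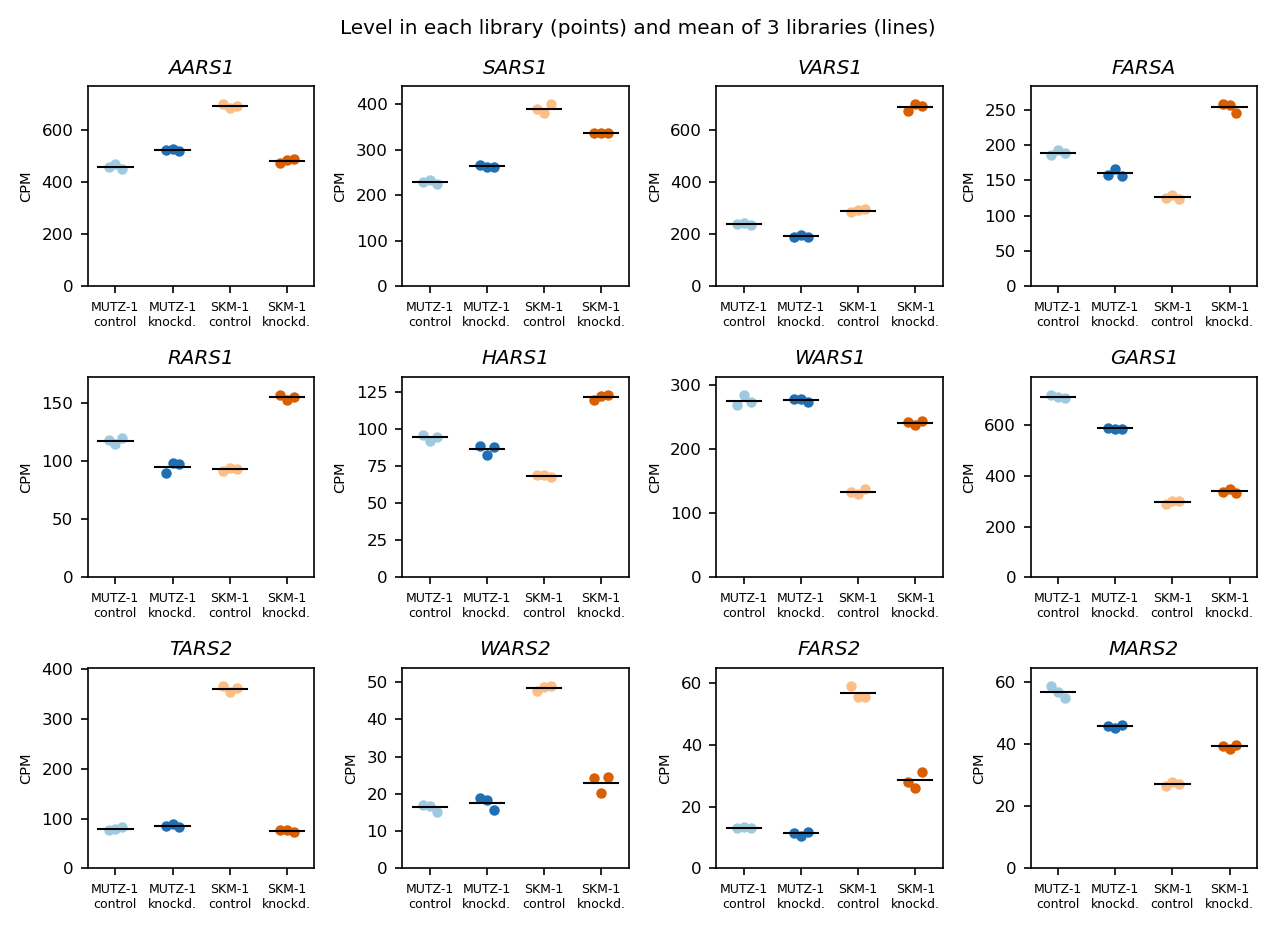
TMM-scaled CPM of 12 synthetase genes in each of the 12 libraries (points) with the mean of 3 libraries (lines), on axes that start at 0. AARS1 and SARS1 are higher after knockdown in MUTZ-1 and lower in SKM-1, VARS1 to HARS1 and GARS1 show the reverse, and TARS2 falls from 361 to 75.8 CPM in SKM-1.

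The 7 listed synthetases of the multisynthetase complex rose in SKM-1, as most cytosolic synthetases did. EPRS1, IARS1, KARS1, LARS1, MARS1, QARS1 and RARS1 all rose there, where 42.1% of all genes tested rose. Their median was 0.33, with a range from 0.13 to 0.74. Among all 20 cytosolic genes, these 7 included, 16 rose in SKM-1, with a median of 0.41. In MUTZ-1, EPRS1, KARS1, MARS1 and RARS1 fell, IARS1 rose, and LARS1 and QARS1 were not called, with a median of -0.10. There, 24.4% of all genes rose and 24.6% fell. The MUTZ-1 call of IARS1 (0.05 ± 0.02) had an adjusted p of 0.0489 and was lost under the fit with replicate numbers as a block (0.0665), with only the MUTZ-1 libraries fitted (0.0628), and without replicate 3 of the MUTZ-1 knockdown (0.086). The call of EPRS1 in MUTZ-1 (-0.10) was lost on the FPKM scales (adjusted p = 0.0764 and 0.077), without replicate 1 of the MUTZ-1 control (0.0701) and without replicate 2 of the MUTZ-1 knockdown (0.0717). On the FPKM scales MARS1 was also not called in SKM-1 (adjusted p = 0.0721 and 0.0726), which left 6 of 7 higher. MARS1 shares sequence with DDIT3 and ARHGAP9 on the opposite strand, and the strand setting of the counting is not given in the sources used here, so its reads could include theirs. DDIT3 averaged 66.4 CPM in control SKM-1 and 37.6 CPM after knockdown.

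The scaffold proteins of the complex did not move as a unit. AIMP2 went from 80.6 ± 2.19 to 56.3 ± 2.11 CPM (SD, n = 3) in MUTZ-1, a fall of 0.52 ± 0.05, and rose by 0.26 ± 0.05 in SKM-1. EEF1E1 fell by 0.20 ± 0.04 in MUTZ-1 and rose by 0.58 ± 0.04 in SKM-1. AIMP1 fell by 0.60 ± 0.04 in SKM-1, from 123 ± 2.39 to 81.1 ± 0.64 CPM, while the synthetases it scaffolds rose.

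Cytosolic synthetases often named as ATF4 targets were set beside the others. Of these 12 genes, 8 rose in SKM-1 and 2 (CARS1 and SARS1) fell beside AARS1, whose fall was known when it was listed. The SKM-1 median was 0.26 over the 12 genes and 0.33 over the 11 without AARS1. All 8 other cytosolic genes rose there, with a median of 0.70. In MUTZ-1 the medians were -0.01 for the ATF4-linked genes (3 rose, AARS1 among them, and 5 fell; the median was 0.04 with library totals) and -0.21 for the others (1 rose, 6 fell). The lists overlap in no gene, and no test of their difference was made. Among all genes tested, 42.1% rose and 42.3% fell in SKM-1, and 24.4% rose and 24.6% fell in MUTZ-1.

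Of the ATF4 program outside the synthetases, 23 genes of amino acid synthesis and stress, 21 fell and 2 (TRIB3 and ATF5) rose in SKM-1, with a median of -1.04, where 42.3% of all genes fell and 42.1% rose. In MUTZ-1, 12 rose and 4 fell, with a median of 0.17, where 24.4% of all genes rose and 24.6% fell. PHGDH, the first enzyme of serine synthesis, went from 390 ± 1.63 to 26.1 ± 1.98 CPM in SKM-1, a fall of 3.90 ± 0.04, and was at 481 and 495 CPM in MUTZ-1. CHAC1, a glutathione-degrading enzyme, fell by 2.76 ± 0.13 in SKM-1 and rose by 0.41 ± 0.08 in MUTZ-1. ATF4 itself fell by 0.54 ± 0.02 in SKM-1 and by 0.15 ± 0.02 in MUTZ-1. Of the ATF4-linked synthetases with a TGATGNAA match shown above, AARS1 had a log2 fold change of -0.52 in SKM-1, GARS1 of 0.19 and IARS1 of 0.33. YARS2, a mitochondrial gene outside that list that also holds the match, was not called there at 0.02.

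**Figure D4:**
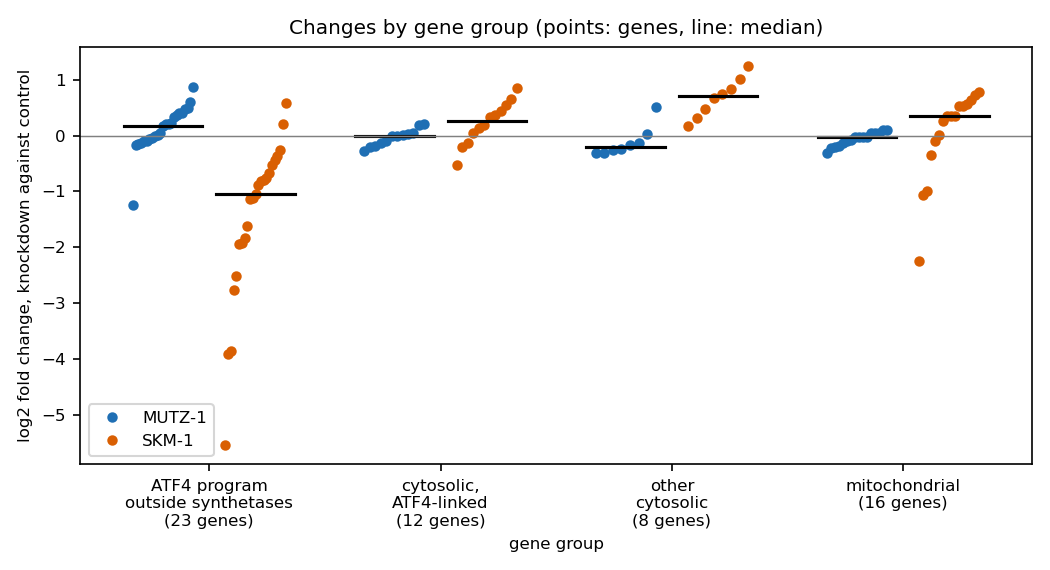
Log2 fold change of knockdown against control for the ATF4 program outside the synthetases, ATF4-linked cytosolic synthetases, other cytosolic synthetases and mitochondrial synthetases (points are genes, black lines medians, MUTZ-1 blue, SKM-1 orange). The SKM-1 medians are -1.04, 0.26, 0.70 and 0.35; the lowest MUTZ-1 point is NUPR1, whose mean in both MUTZ-1 groups was under 0.1 CPM.

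Genes upstream of this program and amino acid transporters were counted in the same way. Of 7 eIF2 kinase and phosphatase genes, which set the signal to ATF4, 3 rose and 3 fell in SKM-1, and 2 rose and 3 fell in MUTZ-1, shares near those of all genes in SKM-1 (42.1% and 42.3%). EIF2AK3, the kinase of the endoplasmic reticulum, fell by 1.14 ± 0.06 in SKM-1, while GCN1, the partner of the amino acid sensing kinase, rose by 0.71 ± 0.02. In MUTZ-1 the largest change of the 7 was that of EIF2AK2, which fell by 1.17 ± 0.03, from 223 to 99.4 CPM. Of 10 amino acid transporters, 2 rose and 7 fell in SKM-1, led by the cystine transporter SLC7A11, which went from 106 ± 2.18 to 20.8 ± 0.56 CPM. In MUTZ-1, 1 transporter rose and 5 fell, led by SLC1A4 (-0.29), where 24.4% of all genes tested rose and 24.6% fell.

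WARS1 was set beside the interferon-gamma genes because of its known induction. It was at 268, 284 and 274 CPM in control MUTZ-1 and at 277, 278 and 273 CPM after knockdown, and the groups overlapped (0.01 ± 0.03, adjusted p = 0.899). In SKM-1 it was at 133, 129 and 138 CPM against 241, 237 and 244 CPM, 1.80-fold higher (adjusted p = 6.73e-75). Of 13 interferon-gamma genes tested of 16 listed, 9 fell and 0 rose in MUTZ-1, and 7 rose and 4 fell in SKM-1, against 24.6% of all genes fallen in MUTZ-1 and 42.1% risen in SKM-1.

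Mitochondrial synthetases included the largest fall of the whole set. TARS2, the mitochondrial threonyl enzyme, was at 366, 354 and 362 CPM in control SKM-1 and at 76.9, 77.2 and 73.2 CPM after knockdown. In MUTZ-1 it was at 78.0, 78.8 and 82.3 CPM in controls and at 85.6, 89.3 and 82.3 CPM after knockdown. The control SKM-1 libraries thus stood apart from the other 9, which lay between 73.2 and 89.3 CPM. TARS2 fell by 2.25 ± 0.03 in SKM-1, 4.76-fold (adjusted p = 3.42e-143), and in MUTZ-1 it rose by 0.10 ± 0.04 (adjusted p = 0.0155).

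WARS2 and FARS2, the mitochondrial tryptophanyl and phenylalanyl enzymes, fell in SKM-1 as well. WARS2 was at 47.5, 48.7 and 48.9 CPM in control SKM-1 and at 24.4, 20.2 and 24.5 CPM after knockdown, a fall of 1.07 ± 0.07 (adjusted p = 3.05e-36). With TARS2 it made up the synthetases that fell at least 2-fold, as 22.5% of all genes did. In MUTZ-1 WARS2 was not called, at 17.0, 16.8 and 15.2 CPM against 18.8, 18.5 and 15.7 CPM. FARS2 was at 59.1, 55.5 and 55.7 CPM against 28.1, 26.1 and 31.2 CPM in SKM-1, 1.99-fold lower. In MUTZ-1 FARS2 was at 13.2, 13.3 and 13.1 CPM against 11.5, 10.4 and 11.9 CPM. That MUTZ-1 difference (-0.22 ± 0.09, adjusted p = 0.0357) was lost with library totals (0.108), on the FPKM scales (0.109 and 0.0825), with DESeq2 (0.0972) and without any 1 of 5 of the 6 MUTZ-1 libraries.

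Other mitochondrial genes rose in SKM-1. Of the 16, 10 rose and 5 fell there, where 42.1% of all genes tested rose and 42.3% fell. The mitochondrial median was 0.35 and the cytosolic one 0.41, with 16 of the 20 cytosolic genes risen and 3 fallen. AARS2, the mitochondrial alanyl enzyme, led the rises, at 43.2, 38.3 and 45.9 CPM against 74.4, 70.9 and 74.0 CPM (0.79 ± 0.05, adjusted p = 1.15e-34). In MUTZ-1 it was at 38.4, 43.5 and 42.3 CPM against 41.1, 39.1 and 41.2 CPM and was not called. Among all genes tested, 24.4% rose and 24.6% fell in MUTZ-1. In MUTZ-1, 1 mitochondrial gene rose and 6 fell, with a median of -0.03 (0.02 with library totals), against 4 risen and 11 fallen cytosolic genes with a median of -0.11. The count of 6 was 2 with library totals, 3 with DESeq2, and 2 or 3 without replicate 1 or 2 of either MUTZ-1 group or replicate 2 of the SKM-1 knockdown. EARS2, IARS2, FARS2 and YARS2 lost their calls with library totals. The SKM-1 call of EARS2 (-0.09, adjusted p = 0.0368) was lost with DESeq2 (0.073), without the filter on low counts (0.057) and without any 1 of 4 SKM-1 libraries (0.0531 to 0.128). MARS2, the mitochondrial methionyl enzyme, had the largest called fall of these in MUTZ-1, at 58.8, 56.8 and 54.9 CPM against 45.9, 45.4 and 46.3 CPM (-0.31 ± 0.05, adjusted p = 1.46e-07). It rose in SKM-1 from 26.5, 27.8 and 27.2 CPM to 39.6, 38.5 and 39.9 CPM.

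Enzyme partners for the same amino acid did not always move together. In SKM-1 the alanyl pair crossed, with AARS1 lower and AARS2 higher, from 213 to 140 FPKM and from 8.5 to 13.8 FPKM, which left an FPKM ratio of cytosolic to mitochondrial enzyme of 10.1. The ratio of the seryl pair moved the same way, from 12.7 to 6.63. The threonyl and tryptophanyl pairs crossed the other way: the ratio of TARS1 to TARS2 went from 0.811 to 6.05 and that of WARS1 to WARS2 from 3.07 to 11.6. So did the phenylalanyl genes, with the ratio of FARSA to FARS2 going from 8.12 to 32.6 and that of FARSB to FARS2 from 1.55 to 4.27. EPRS1 rose while EARS2 fell by 0.09, a call that some alternatives lost, and their ratio went from 5.77 to 8.95. In MUTZ-1 the threonyl ratio was 1.87 in controls and 1.51 after knockdown. The isoleucyl pair kept near its ratio in SKM-1, at 1.45 and 1.43, since IARS1 and IARS2 rose alike (0.33 and 0.35). HARS1 and HARS2 start 85 bases apart on opposite strands of chromosome 5, at 140691370 and 140691455 in GRCh38. They rose by 0.83 and 0.25 in SKM-1, and they overlap in the annotation, so unstranded counting could mix their reads.

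Of the 36 genes, 7 had a higher change in MUTZ-1 than in SKM-1 and 26 a lower one (interaction test in the same fit), against 36.4% and 35.6% of all genes, and 72.0% of all genes in either direction. Without AARS1, whose opposite changes were known when it was listed, 6 of 35 had a higher change and 26 a lower one. These differences use the same libraries as the changes in each line and are not separate evidence. The largest were those of TARS2 at 2.35 ± 0.05 (adjusted p = 1.75e-109), VARS1 at -1.56 ± 0.03 (4.3e-106), FARSA at -1.25 ± 0.04 (1.22e-74), WARS2 at 1.18 ± 0.11 (1.26e-21) and RARS1 at -1.04 ± 0.05 (5.08e-51). TARS3, YARS1, the cytosolic tyrosyl enzyme, and EARS2, the mitochondrial glutamyl enzyme, were not called different, although YARS1 was with library totals (0.08, adjusted p = 0.0353). YARS1 was not called in either line, at 374 and 371 CPM in MUTZ-1 and 318 and 327 CPM in SKM-1, with groups that overlapped in each line.

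The control libraries already differed between the lines. Control MUTZ-1 was higher than control SKM-1 for 17 synthetases and lower for 15, where 41.4% of all genes were higher and 48.8% lower. Of the 20 cytosolic genes, 13 were higher and 6 lower in MUTZ-1, and of the 16 mitochondrial genes 4 were higher and 9 lower, with no test between the classes. With library totals in place of TMM the counts were 13 higher and 18 lower, of which cytosolic genes made 11 and 8 and mitochondrial genes 2 and 10. Leaving out 1 library lowered the count of higher synthetases to as few as 13. Without replicate 1 or 2 of the MUTZ-1 control or knockdown, or replicate 2 of either SKM-1 group, 2 mitochondrial genes were higher. That scaling moved the median of all genes from -0.11 to -0.24 in this comparison, and from 0.04 to 0.17 in the difference between the lines. GARS1 (1.26 ± 0.02) and CARS2 (1.09) were the furthest above SKM-1. TARS2 (-2.18), FARS2 (-2.10), WARS2 (-1.56) and LARS2 (-1.52) were the furthest below. TARS2, FARS2 and WARS2, which fell most in SKM-1, were thus also those with the largest excess in control SKM-1, and both comparisons use the same 3 SKM-1 control libraries.

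The location of each gene was compared with the changes of its tested neighbours, 10 on each side, since whole chromosomes differed between the SKM-1 groups (the median of 231 genes on chromosome 13 was -1.09, and that of 120 genes on chromosome 21 was 0.47). TARS2 lies on chromosome 1 from 150487419 to 150507602 (GRCh38, RefSeq), and 15 of its 20 neighbours fell, with a median of -0.83. WARS2 lies on chromosome 1 from 119031216 to 119140672, and 14 of its neighbours fell, with a median of -0.84. VARS1 lies on chromosome 6 from 31777518 to 31795752, where 14 neighbours rose, with a median of 0.95. Around FARS2, also on chromosome 6, 10 neighbours fell and 7 rose, with a median of -0.09. These counts are to be read against all genes tested in SKM-1, of which 42.1% rose and 42.3% fell. Of other genes that rose there, FARSA and HARS1 had neighbours with medians of 0.59 and 0.54. WARS1 and RARS1 rose among neighbours with medians of 0.04 and -0.43. CARS2, on chromosome 13, fell less (-0.35) than its neighbours (-0.80). AARS1, on chromosome 16, fell among neighbours with a median of 0.16, and MARS1, on chromosome 12, rose among neighbours with a median of -1.06. The part of copy number or of neighbouring transcription in these changes was not tested.

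**Figure D5:**
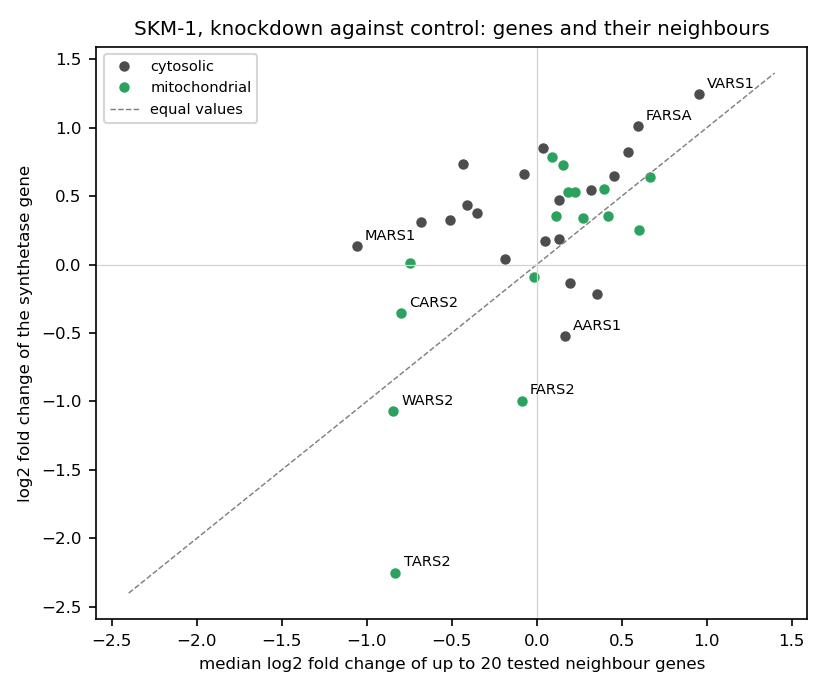
Log2 fold change of each synthetase gene in SKM-1 (vertical axis) against the median of its tested neighbours (horizontal axis), cytosolic genes in grey and mitochondrial in green, with a dashed line of equal values. TARS2 (-2.25) lies far below the median of its neighbours (-0.83), and VARS1 (1.24) lies near that of its own (0.95).

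Steps before and after charging were described from further lists, to be read against the shares of all genes: 42.1% rose and 42.3% fell in SKM-1, and 24.4% rose and 24.6% fell in MUTZ-1. Of 16 tRNA processing and export genes, 12 rose and 1 fell in SKM-1 (median 0.53), while 1 rose and 10 fell in MUTZ-1 (median -0.15). SSB, the La protein that binds new RNA polymerase III transcripts, went from 195 ± 0.69 to 455 ± 4.91 CPM in SKM-1 and from 211 ± 3.54 to 185 ± 9.95 CPM in MUTZ-1. Of 20 RNA polymerase III genes, which transcribe tRNAs, 12 rose and 5 fell in SKM-1, and 2 rose and 12 fell in MUTZ-1. POLR3G, a subunit of this polymerase, rose by 1.48 ± 0.06 in SKM-1, and GTF3C6, a subunit of its initiation factor TFIIIC, fell by 0.43 ± 0.05 in MUTZ-1 and rose by 1.19 ± 0.06 in SKM-1.

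In mitochondria, 76 of 77 ribosomal protein genes were tested: 57 rose and 12 fell in SKM-1 (median 0.44), and 7 rose and 40 fell in MUTZ-1 (median -0.14), beside the same shares of all genes. MRPS12 shares sequence with SARS2 on the opposite strand, so their reads could mix. Helpers that complete charging in mitochondria were mixed: QRSL1, the catalytic subunit of the glutaminyl-tRNA amidotransferase, rose by 0.49 ± 0.05 in SKM-1, while its partners GATB and GATC fell by 0.73 ± 0.06 and 0.29 ± 0.04. Of 10 elongation factors, which carry charged tRNAs to the ribosome or move it, 6 rose and 2 fell in SKM-1, and 5 rose and 5 fell in MUTZ-1. EEF1A2, the tissue-specific form of the factor that delivers charged tRNA, rose in both lines, by 0.65 ± 0.04 in MUTZ-1 and 0.69 ± 0.07 in SKM-1. Of 4 tested genes for selenocysteine and proofreading steps, DTD1, which removes wrongly attached D-amino acids, fell by 1.86 ± 0.06 in SKM-1.

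The enzymes fall into a class I and a class II fold, and EPRS1 carries both. Of 19 class I genes, 13 rose and 4 fell in SKM-1, and 1 rose and 9 fell in MUTZ-1. Of 18 class II genes, 14 rose and 4 fell in SKM-1, and 4 rose and 9 fell in MUTZ-1. The shares of all genes were 42.1% risen and 42.3% fallen in SKM-1, and 24.4% and 24.6% in MUTZ-1, and the folds were not tested against each other.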

How the data were processed

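RNA of 12 libraries (4 groups of 3) had been sequenced from poly(A)-selected, stranded TruSeq libraries, per the labels' protocols. HTSeq, HISAT2, fastp and the build GRCh38 stand in the submitters' processing notes. For the annotation and the strand setting, nothing is given in the sources used here. The authors deposited whole-number counts per gene, tested as deposited, and FPKM values, which were used for levels between genes and as alternatives. Groups came from the sample titles.

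In edgeR 4.0.16 (R 4.3.3), filterByExpr kept 13625 genes. TMM factors were 0.959 to 1.06. The quasi-likelihood test with robust shrinkage used 1 mean per group over all 12 libraries (8 residual degrees of freedom, biological coefficient of variation 2.44%), with Benjamini-Hochberg adjustment over all genes tested. SE was derived from the fold change and its F statistic. The code recovered most known changes in simulated counts for the MUTZ-1 comparison. In that simulation few genes changed, by larger folds than any synthetase in MUTZ-1. It therefore does not cover the small MUTZ-1 changes or the scaling where many genes change. Alternatives used library totals, no filter, log2(FPKM + 1) and log2(FPKM + 0.1) with limma 3.58.1, DESeq2 1.42.0, a replicate block, only the groups compared, values relative to the chromosome median, and leaving out each library. Counting error is small at these depths, and near-identical copies could split reads.

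The synthetases and all lists were chosen with earlier results of these data known, so no list was tested as a set. Values per library are given for AARS1, the 8 called genes with the largest change in each line and the 5 with the largest called difference. Further members are named for their role. At most 3 genes per other list and comparison were named, as the largest called changes with a mean of at least 5 CPM. SARS1, ATF4, DDIT3, TRIB3, ATF5 and NUPR1 were named outside that rule, after their values were seen. Promoter windows and gene positions came from RefSeq (GRCh38.p14), and the strands and overlaps of genes from GENCODE 29.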

Additional observations from a re-analysis of the deposited data

Results flagged for a closer look

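The response to knockdown differed between the lines for 33 of the 36 synthetases by the interaction test (adjusted p under 0.05 in edgeR's quasi-likelihood test), which is why they are listed here. AARS1 is among the 33 by the choice of the list. Without it, 6 of 35 genes had a higher change in MUTZ-1 than in SKM-1 and 26 a lower one. Values are the MUTZ-1 log2 fold change minus that of SKM-1. The cytosolic genes below 0 were VARS1 at -1.56, FARSA at -1.25, RARS1 at -1.04, HARS1 at -0.95, WARS1 at -0.85, TARS1 at -0.85, EPRS1 at -0.64, FARSB at -0.64, NARS1 at -0.57, KARS1 at -0.57, GARS1 at -0.47, LARS1 at -0.44, IARS1 at -0.28, MARS1 at -0.27 and QARS1 at -0.15. The mitochondrial genes below 0 were MARS2 at -0.84, AARS2 at -0.81, SARS2 at -0.69, LARS2 at -0.67, PARS2 at -0.57, VARS2 at -0.52, NARS2 at -0.44, IARS2 at -0.43, RARS2 at -0.31, HARS2 at -0.27 and YARS2 at -0.21. Above 0 were CARS1 at 0.16, SARS1 at 0.42 and, as a description since it was listed for this difference, AARS1 at 0.71 among the cytosolic genes. The mitochondrial genes above 0 were CARS2 at 0.14, FARS2 at 0.77, WARS2 at 1.18 and TARS2 at 2.35. NUDT21, the targeted gene, differed by 0.23, with the deeper loss in SKM-1.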

How the results depend on the processing

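The SKM-1 counts of risen and fallen synthetases, and the counts of genes that differed between the lines, stayed within 1.5 times under each alternative run; the small MUTZ-1 changes and the control comparison moved with the scaling. In MUTZ-1, library totals in place of TMM left 2 fallen mitochondrial genes, and DESeq2 and both FPKM scales left 3. On both FPKM scales 8 of the 36 genes and 3 of the mitochondrial ones rose. The cytosolic median there was -0.0654 with library totals, -0.0647 on log2(FPKM + 1), -0.0657 on log2(FPKM + 0.1) and -0.0910 with DESeq2. The mitochondrial median turned to 0.0159 with library totals, 0.0097 on log2(FPKM + 1) and 0.0112 on log2(FPKM + 0.1). In SKM-1 the cytosolic median was 0.3246, 0.3208 and 0.3245 under the same settings, and 0.3816 with only the SKM-1 libraries, and the mitochondrial median was 0.2653, 0.2489 and 0.2640. The difference for YARS1 turned to 0.0762 with library totals. In that setting and on the FPKM scales the differences of HARS2, QARS1 and YARS2 were not called, and that of YARS2 was lost with DESeq2 as well (adjusted p = 0.0820).

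In the comparison of controls, 2 mitochondrial genes were higher in MUTZ-1 with library totals, both FPKM scales and DESeq2. With library totals, log2(FPKM + 1) and log2(FPKM + 0.1), the values turned negative for CARS1 (-0.0462, -0.0443 and -0.0456), EPRS1 (-0.0753, -0.0746 and -0.0754), KARS1 (-0.1192, -0.1185 and -0.1193) and RARS2 (-0.0178, -0.0156 and -0.0168). EPRS1 was at -0.0022 with DESeq2 and ran from -0.0086 (without replicate 1 of the MUTZ-1 control) to 0.0647 with each library left out. The cause of these shifts was not tested.

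With each library left out in turn, fallen genes in MUTZ-1 numbered 11 to 17 and fallen mitochondrial genes 2 to 6. The MUTZ-1 medians ran from -0.1229 to -0.0604 (cytosolic) and from -0.0631 to 0.0045 (mitochondrial, positive without replicate 2 of the MUTZ-1 knockdown). The SKM-1 cytosolic median ran from 0.3816 to 0.4123, and mitochondrial genes higher in control MUTZ-1 from 2 to 4. The difference of CARS2 was lost without replicate 3 of the MUTZ-1 control, of the MUTZ-1 knockdown or of the SKM-1 control, or without replicate 1 or 3 of the SKM-1 knockdown (adjusted p = 0.0679 to 0.119).

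Libraries with the same replicate number did not deviate together (correlations of -0.0702 to 0.0229 over 10894 genes), so the number was not taken as a pairing. With the number as a block, 4 synthetases rose and 17 fell in MUTZ-1, 26 rose and 8 fell in SKM-1, and 7 and 26 differed between the lines. The call of IARS1 in MUTZ-1 was the only one of these genes to change. Relative to the median of each gene's chromosome, 23 synthetases were at least 0.2 above 0 and 6 at least 0.2 below in SKM-1, and 2 and 10 in MUTZ-1. The SKM-1 counts were the same without that step, although not for all the same genes. No share of all genes at that size was computed. TARS3 and FARS2 in MUTZ-1 rest on levels near 10 CPM, where counting error is larger.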
